A study of Caenorhabditis elegans with 4 samples.

Results

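The 981 FOS-1::GFP peaks on chromosome II were chosen by position alone, as all regions of the combined peak list that lie on that chromosome, out of 6095 regions in the whole list. The study mapped FOS-1 binding along the genome of Caenorhabditis elegans, in larvae of the first stage (L1) that had been fed. It used 2 chromatin immunoprecipitation (ChIP) libraries, made with a goat antibody against GFP, and 2 background libraries of input DNA, which is chromatin that was not precipitated. All 4 came from hermaphrodites of strain OP304, which has the unc119(ed3) mutation and the integrated array wgIs304, grown at 20 °C and fixed in 2% formaldehyde. The array, made by bombardment, holds fos-1 joined to the tags TY1, EGFP and FLAG, and a copy of unc119 that rescues the mutation. Every animal in both groups carried it, and no strain without the tag is among the samples. The combined list was called by the authors on the merged reads of both ChIP libraries, and a shorter list was called on each ChIP library alone. Nothing in the labels says that the replicates came from separate cultures. These 3 lists are called the combined, replicate 1 and replicate 2 lists here.

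FOS-1 belongs to the Fos proteins, bZIP transcription factors that bind DNA as dimers, often with a Jun partner. In this worm it is best known for its role in the anchor cell, which needs it to invade the vulval epithelium. The gene for the Jun protein, jun-1, is itself on chromosome II in the RefSeq table of the WBcel235 assembly, whereas fos-1 is on V. The autosomes of this species have a gene-dense centre with little recombination, flanked by arms that recombine more and hold more repeats. For each chromosome the span from its first base to the end of its last peak in any list was divided at 33.3% and 66.7% of its length into a left arm, a centre and a right arm. These limits are fixed shares of the span, were not placed by recombination or gene density, and may differ from the arms so defined. On II these limits lay at 5088326 and 10176651 of a span of 15264977 bp. Positions are given in WS220, a WormBase build. Genes at the peaks were not assigned and no sequence is shown, because the gene table at hand is of another build and no genome of WS220 was used here.

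The 2 ChIP libraries held 3763795 (replicate 1) and 2961912 (replicate 2) uniquely mapped reads, a ratio of 1.27, and the 2 input libraries held 2762470 and 2799514. On II the replicate 1 list had 705 peaks and the replicate 2 list 383, a ratio of 1.84. The part of read number in this difference was not tested. Absence from a list means only that no peak was called, and FOS-1 may still bind there.

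The left arm of chromosome II was sparse in FOS-1 peaks beside its centre and its right arm. In the combined list the left arm carried 203 peaks (39.9 per Mb), the centre 441 (86.7 per Mb) and the right arm 337 (66.2 per Mb). Thus the right arm held 1.66 times as many peaks as the left arm of the same length. The skew was wider in each replicate list: replicate 1 had 120 peaks in the left arm, 341 in the centre and 244 in the right arm, and replicate 2 had 72, 149 and 162. In these lists the right arm held 2.03 times (replicate 1) and 2.25 times (replicate 2) as many peaks as the left arm. The right arm was the fullest part of II in replicate 2, whereas the centre was the fullest in replicate 1 and in the combined list. Sparse arms were not particular to II. In the combined list the arms of V had 29.9 (left) and 28.4 (right) peaks per Mb and the right arm of IV 44.0. The remaining arms of the other autosomes had 61.9 to 74.7. Over its whole span II had 64.3 combined peaks per Mb, against 75.3 on I, 75.7 on III, 59.4 on IV and 38.9 on V.

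Each of the other autosomes divided its arm peaks more evenly or the other way round. Of the 540 arm peaks on II, 203 (37.6%, exact 95% interval 33.5 to 41.8) lay in the left arm, against 1204 of 2312 (52.1%, 50.0 to 54.1) on I, III, IV and V together. The difference was -14.5 percentage points (95% interval -18.96 to -9.85; two-sided Fisher's exact test, p = 1.05e-08 after Benjamini-Hochberg adjustment over 7 measures). By chromosome, the left share was 52.1% on I, 45.8% on III, 58.97% on IV and 51.2% on V. The arms of IV were thus also unequal, with 368 peaks in the left and 256 in the right, but in the other direction. The pooled share of the other autosomes therefore mixes skews of opposite direction. The share on II was below each of these 4 in Fisher's exact tests adjusted over 28 pairs, with adjusted p = 3.00e-06 against I, 0.0184 against III, 3.67e-12 against IV and 0.00012 against V. Neighbouring peaks are not independent, so these p-values may be too small, and 1 chromosome set against 4 allows no test with the chromosome as the unit. When neighbours separated by up to 2000 bp were merged and counted as 1 region, the difference was -13.2 points (Fisher's exact test, adjusted p = 9.80e-06). The sex chromosome X, with 43.3%, was not part of these tests.

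**Figure D1:**
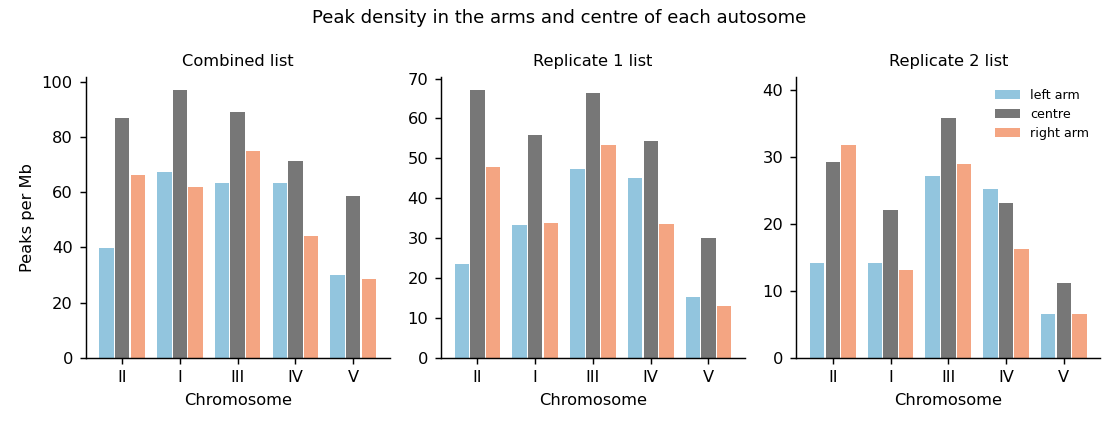
Peaks per Mb (vertical axis) in the left arm, centre and right arm of chromosome II and of the other 4 autosomes, in the combined, replicate 1 and replicate 2 lists (bars; no error, since each is a single count over a fixed length). On II the right arm stands above the left arm in all 3 lists, at 66.2 against 39.9 peaks per Mb in the combined list.

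Divided into segments of 1 Mb, the combined list showed where on II the sparse stretch lay. The first 5 segments from the left end held 44, 23, 46, 39 and 43 peaks. The next segment, from 5 to 6 Mb, held 97, the most of any full segment, and the 4 after it held 83 to 92. The last segment was a short one, from 15 to 15.26 Mb, and held 26. From 10 to 15 Mb the counts were 69, 72, 54, 57 and 67, so that every full segment beyond 5 Mb held more peaks than any of those before it. In replicate 1 the first 5 segments held 10 to 31 peaks and the full segments after 5 Mb 33 to 85. In replicate 2 the corresponding ranges were 7 to 17 and 20 to 39, so that in both replicate lists too the first 5 segments did not overlap with the other full segments.

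The centre of II was its densest part in the combined list. It held 45.0% of its combined peaks (441 of 981, exact 95% interval 41.8 to 48.1), against 42.6% (1717 of 4029) on the other 4 autosomes. That difference of 2.34 points had an interval of -1.11 to 5.81 and was not called (Fisher's exact test, adjusted p = 0.31). Against single autosomes, II lay above III (39.3%, adjusted p = 0.0317, Fisher's exact test over 28 pairs) and was not called apart from IV (39.9%, 0.0606), I (42.8%, 0.502) or V (50.1%, 0.083). The value also depended on the list. It was 48.4% in replicate 1, where II was 5.01 points above the others (Fisher's exact test, adjusted p = 0.0465), and 38.9% in replicate 2, where it differed from them by -1.24 points (adjusted p = 0.676).

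Within windows of 100 kb the peaks of II ran from none to 23, with a median of 5 and quartiles of 3 and 8 over 153 windows. The last window was shorter, from 15.2 to 15.265 Mb, and held 12 combined peaks. Windows with 15 or more combined peaks, called dense here, numbered 9 and held 161 of the 981 peaks (16.4%). Of these windows 7 lay in the centre, 2 in the right arm and 0 in the left arm. The fullest window spanned 6.8 to 6.9 Mb. It counted 23 peaks in the combined list, 22 in that of replicate 1 and 9 in that of replicate 2, and peaks covered 14.4% of its bases. The next, at 5.9 to 6.0 Mb, counted 21 in the combined list but only 14 for replicate 1 and 3 for replicate 2, and 0 of its peaks were in the first decile of the whole list by q. The window from 5.3 to 5.4 Mb had 20, 22 and 13 peaks in the 3 lists, held 6 first-decile peaks and had 15.02% of its bases covered.

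Behind these came 3 windows with 17 combined peaks each. From 9.1 to 9.2 Mb there were 16 peaks in replicate 1 and 4 in replicate 2. From 10.5 to 10.6 Mb these numbers were 13 and 10, and from 14.0 to 14.1 Mb they were 15 and 9. Both right-arm windows thus held at least as many replicate 2 peaks as the window of the centre with most combined peaks, although they had fewer combined peaks. They held fewer replicate 2 peaks than the centre window from 5.3 to 5.4 Mb, which had 13. The remaining dense windows began at 7.3, 7.6 and 8.1 Mb, with 15, 16 and 15 combined peaks. Of the peaks in dense windows, 54 of 161 (33.5%, exact 95% interval 26.3 to 41.4) overlapped a peak of both replicates, against 272 of 820 (33.2%, 29.95 to 36.5) elsewhere on II. Their median width was 365 bp, against 305 bp elsewhere.

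Dense windows were counted on every autosome in each list. In the combined list II had 9 dense windows of 153 (5.88%), I had 12 of 151 (7.95%), III 8 of 138 (5.8%), IV 3 of 175 (1.71%) and V 2 of 210 (0.952%). The limit of 15 peaks was the same for each list, although the lists had 981 (combined), 705 (replicate 1) and 383 (replicate 2) peaks on II. The order was another one in replicate 1, where the number was 4 on II, 0 on I, 2 on III, 1 on IV and 0 on V. In replicate 2, the shortest list, it was 0 on all 5, which gives no order. With close neighbours merged, II had 0 dense windows in the combined list as well. Window counts were uneven, with a variance 3.09 times the mean on II, 3.08 on V, 2.35 on I, 2.24 on IV and 2.16 on III. These are descriptions, since neighbouring windows are not independent. Across the windows of II the counts of the lists went together, with Spearman's rho of 0.88 between combined and replicate 1, 0.74 between combined and replicate 2 and 0.76 between the replicates (153 windows that share reads and sequence, no test).

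**Figure D2:**
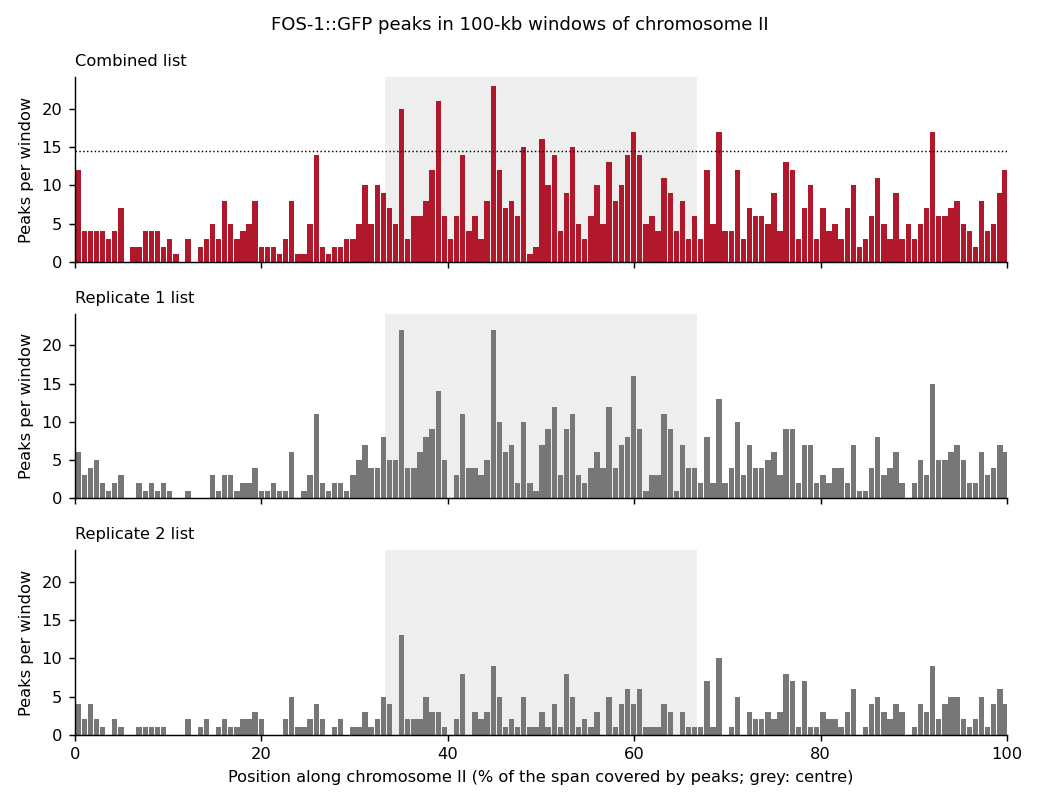
Number of peaks in each of 153 windows of 100 kb (the last one shorter) along chromosome II (vertical axis), against the window's position as a percentage of the span (horizontal axis), in the combined, replicate 1 and replicate 2 lists. The grey area is the centre and the dotted line marks the limit of 15 peaks for a dense window, which 7 windows of the centre, 2 of the right arm and 0 of the left arm reached.

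All 3 windows of II without a combined peak lay in the left arm, from 0.8 to 0.9 Mb, from 1.7 to 1.8 Mb and from 1.9 to 2.0 Mb. Neither replicate list had a peak in any of them. The longest stretch without a combined peak ran for 207 kb, from 1851950 to 2059068, and the next, of 150 kb, from 1520190 to 1670466. The third, of 149 kb, was in the right arm, from 14645707 to 14794870. None of these 3 stretches held a peak of either replicate list. The placement of empty windows depended on where the windows began. With windows shifted by 50 kb, 6 were empty, and the right-arm stretch of 149 kb then contained a whole empty window. In replicate 1 there were 10 empty windows on II, 8 of them in the left arm, and in replicate 2 there were 22, of which 13 were in the left arm. On the other autosomes 2 windows were empty on I, 2 on III, 9 on IV and 27 on V in the combined list. In replicate 1 these numbers were 8 on I, 5 on III, 10 on IV and 66 on V, and in replicate 2 they were 41, 14, 32 and 108.

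The left arm, with 20.69% of the peaks of II, held none of its 20 strongest, but it did hold strong peaks. Ranked within the combined list by the authors' q value, 11 of the 20 strongest peaks lay in the centre, 9 in the right arm and 0 in the left arm. Of the 92 peaks of II in the first decile of the whole list, 17 lay in the left arm, 35 in the centre and 40 in the right arm, so the absence from the left arm applies to the 20 strongest and not to strong peaks in general. All 20 strongest overlapped a peak in both replicate lists, and the lowest-ranked of them was number 140 of the 6095. The strongest peak of the left arm came at rank 24 on II. It lay at 2973622 to 2974495, was 874 bp wide and had q = 3.59e-33, and it too was found in both replicates. It was looked up after the ranks had been seen.

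The first region of II, at 5333759 to 5340189, was also the first of the whole list, with q = 2.38e-210 and a width of 6431 bp. In replicate 1 it was met by 3 peaks, the main one 4129 bp wide (q = 1.02e-137, rank 1 of that list). In replicate 2 it was met by a single peak of 4344 bp (q = 1.39e-74, rank 2). The 2 smaller replicate 1 peaks, with q of 4.07e-07 and 0.000135, lay to the left of the main one, so that the left flank of the combined region was called separately in replicate 1 and not called in replicate 2. This region was also part of the longest run of close peaks on II.

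Second came a region in the right arm at 11634799 to 11637892 (3094 bp, q = 1.26e-137, rank 8 of the whole list). Replicate 1 covered it with 1 peak of 3077 bp (q = 4.91e-96), whereas replicate 2 covered it with 3 peaks, the strongest of 1292 bp (q = 8.13e-39). The third region, at 5543258 to 5544425 (1168 bp, q = 8.42e-95), had single peaks of 1121 bp in replicate 1 and 1081 bp in replicate 2. The fifth, at 5844506 to 5845207, measured 702 bp in the combined list, 685 bp in replicate 1 and 659 bp in replicate 2, and the sixth, at 10563278 to 10563825, measured 548, 516 and 390 bp.

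Replicate 2 also had a narrower or a divided outline in other regions, of which 3 are described here. At 9112586 to 9113990, the fourth, the combined peak was 1405 bp wide, with 893 bp in replicate 1 and 706 bp in replicate 2. At 9060025 to 9062401, the eighth, the widths were 2377 bp and 2367 bp in the combined and replicate 1 lists, whereas replicate 2 had 2 peaks there. At 6346437 to 6349104, the ninth, replicate 1 had 1 peak of 2543 bp (q = 5.29e-38) and replicate 2 had 3, the strongest of 482 bp with q = 1.96e-09. In all, 1 of the 20 regions met more than 1 peak in replicate 1 and 4 did in replicate 2.

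The seventh region, at 5660943 to 5662304 (1362 bp, q = 1.72e-62), is the only combined peak on II whose internal structure the file header names as changed when the peaks were carried over from the older build. The header gives it there as 1363 bp wide, so the change came to a single base. Peaks of 1345 bp in replicate 1 and 1204 bp in replicate 2 lay at the same place. The other regions among the 20, in order of q, were at 6588778 to 6589736, 8561081 to 8561603, 14039175 to 14040855, 15025178 to 15026142, 12944427 to 12945113, 11749237 to 11750272, 8184981 to 8185375, 6951332 to 6951899, 11974313 to 11975612, 12768147 to 12768726 and 14561561 to 14561933. Their q values ran from 1.76e-55 to 2.78e-35 and their widths from 373 to 1681 bp. In 19 of the 20 regions the strongest replicate 1 peak had a lower q than the strongest replicate 2 peak, the exception being the region at 12768147, where q was 1.31e-17 in replicate 1 and 6.37e-18 in replicate 2.

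**Figure D3:**
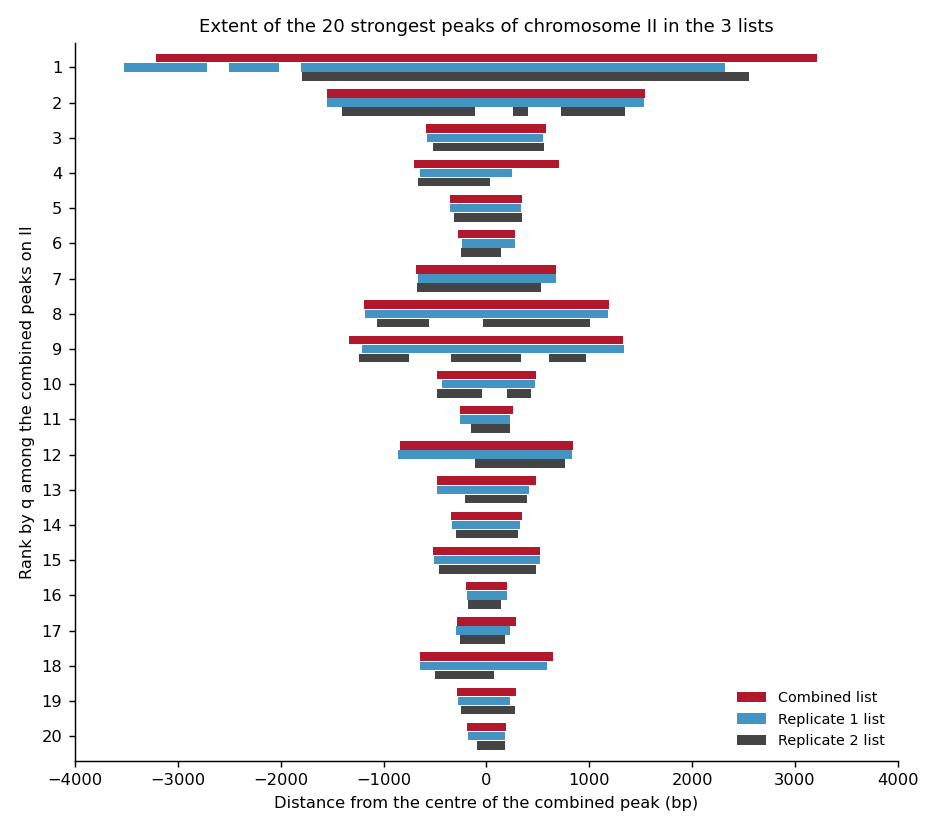
Extent of the 20 strongest combined peaks of chromosome II and of every replicate peak that overlaps them (bars; horizontal axis: distance in bp from the centre of the combined peak; vertical axis: rank by q on II). Most regions have 1 bar per list, whereas the second and the 3 ranked 8, 9 and 10 are divided in replicate 2 and the first is divided in replicate 1.

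The first decile holds the 10% of the whole combined list with the lowest q. Of the peaks of II, 92 (9.38%, exact 95% interval 7.63 to 11.4) belonged to it, against 399 of 4029 (9.9%) on the other autosomes. The difference of -0.53 points (interval -2.45 to 1.65) was not called (Fisher's exact test, adjusted p = 0.788). Within II the share was 8.37% in the left arm (4.95 to 13.1), 7.94% in the centre (5.59 to 10.9) and 11.9% in the right arm (8.62 to 15.8), with overlapping intervals. The median q was 0.000317 in the left arm, 0.000138 in the centre and 1.77e-05 in the right arm.

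Peaks of II were found in both replicates more often than those of I and V, and were not called apart from those of III and IV. Of the 981 peaks, 326 (33.2%, exact 95% interval 30.3 to 36.3) overlapped a peak of both replicate lists by at least 1 bp, beside 29.1% of the whole combined list. A further 332 (33.8%) overlapped replicate 1 only and 37 (3.77%) replicate 2 only, and 286 (29.2%, 26.3 to 32.1) overlapped neither, beside 35.8% of the whole list. In all, 658 peaks of II (67.1%) overlapped the replicate 1 list, beside 61.8% of the whole list, and 363 (37.0%) the replicate 2 list, beside 31.5%. On the other 4 autosomes together 27.6% of peaks were found in both (difference 5.68 points, interval 2.48 to 8.98, Fisher's exact test, adjusted p = 0.00123) and 38.4% in neither (difference -9.22 points, -12.4 to -5.94, adjusted p = 2.25e-07). By chromosome, the differences were called against I and V. The share found in both was 20.3% on I (adjusted p = 1.08e-10, Fisher's exact test over 28 pairs) and 18.7% on V (1.79e-11), but 36.6% on III (0.247, difference -3.33 points, interval -7.47 to 0.82) and 33.4% on IV (0.998, difference -0.20 points, interval -4.30 to 3.91). Set against III and IV alone, II differed by -1.77 points for peaks found in both and by 0.0674 points for those found in neither, and neither difference was called (Fisher's exact test, adjusted p = 0.517 and 0.966). Since the combined list rests on both libraries' reads, none of these shares measures reproducibility independently.

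Within II, peaks of the right arm were found in both replicates more often than the others, a comparison that was added after the values had been seen. There 143 of 337 peaks (42.4%, exact 95% interval 37.1 to 47.9) overlapped both replicate lists, against 126 of 441 (28.6%, 24.4 to 33.0) in the centre, a difference of 13.9 points (Fisher's exact test, adjusted over 15 comparisons of arms and centres on 5 autosomes, p = 0.0011). The left arm, with 57 of 203 (28.1%), differed from the right arm by -14.4 points (adjusted p = 0.00683, Fisher's exact test) and was not called apart from the centre (adjusted p = 0.991). No such comparison on the other autosomes was called, the lowest adjusted p being 0.241. Whether the contrast on II differs from those on other chromosomes was not tested. Neighbouring peaks are not independent, so these p-values of Fisher's exact test may be too small. Peaks of the right arm also had a lower median q (1.77e-05) than those of the centre (0.000138) and the left arm (0.000317). The part of peak strength in the contrast was not tested. Replicate 2 had 0.664 peaks for each replicate 1 peak in the right arm of II, 0.437 in the centre and 0.6 in the left arm. By 1-Mb segment, the share found in both was highest from 14 to 15 Mb, at 35 of 67 peaks (52.2%), and lowest from 2 to 3 Mb, at 8 of 46 (17.4%).

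Read from the shorter lists, 337 of the 383 replicate 2 peaks on II (88.0%, exact 95% interval 84.3 to 91.1) had a counterpart in replicate 1, and 326 of the 705 replicate 1 peaks (46.2%) had one in replicate 2. The first share was 95.2% on I, 91.5% on III, 93.4% on IV and 90.6% on V, so that II had the lowest of the 5, although its interval overlapped those on III (88.4 to 94.0), IV (90.4 to 95.7) and V (85.2 to 94.5). Nearly all peaks of the short lists had a counterpart in the combined list, 670 of 705 (95.04%) for replicate 1 and 379 of 383 (99.0%) for replicate 2. Where both replicates met the same combined peak of II, their midpoints lay a median of 34 bp apart and their strengths ran together, with Spearman's rho of 0.73 for −log10 q over 326 peaks (sites that share the libraries' depth, no test). The replicate 1 peak had the lower q in 286 of these 326 pairs.

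On II, as on the other autosomes, the stronger peaks were the ones found in both replicates. Among combined peaks of II in the first decile of the whole list by q, 90 of 92 (97.8%) overlapped both replicates, and in the second decile 89 of 96 (92.7%). The share was 65.4% (70 of 107) in the third decile, 50.8% (60 of 118) in the fourth and 16.9% (13 of 77) in the fifth. It was 4.08% (4 of 98) in the sixth decile and 0 of 111, 0 of 79, 0 of 94 and 0 of 109 in the last 4, which allows shares of up to 3.27% to 4.56% (exact 95% upper bounds, counting error only). In the fourth decile the share on III was 50.0% (49 of 98) and on IV 34.5% (40 of 116), whereas on I it was 1.79% (2 of 112) and on V 7.81% (5 of 64). At this rank the exact 95% interval on II (41.5 to 60.2) lay above those on I (0.217 to 6.30) and V (2.59 to 17.3) and overlapped that on IV (25.9 to 43.9). The order of II and IV was the other way round in the first 3 deciles and the fifth. On IV the share was 100%, 95.5% and 77.1% in the first 3 deciles and 22.6% in the fifth. On III it was 99.1%, 91.3%, 77.0% and 16.5% in these deciles. The deciles were not tested one by one.

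**Figure D4:**
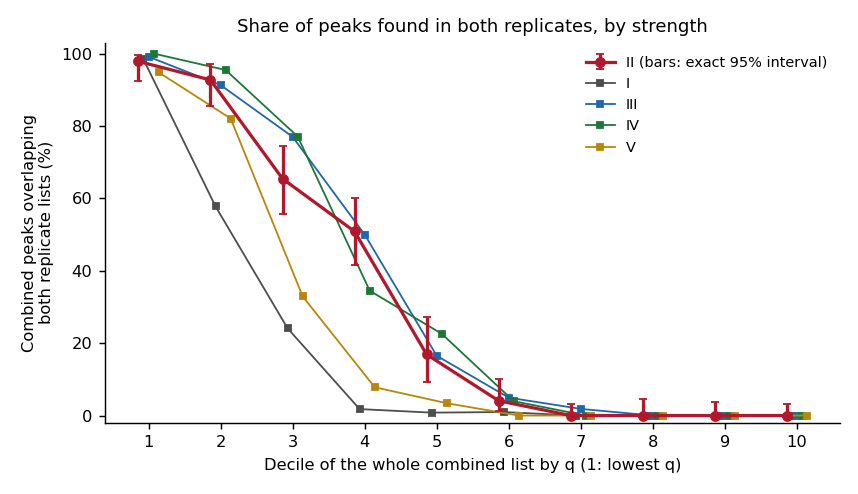
Share of combined peaks that overlap both replicate lists (vertical axis, percent) in each decile of the whole combined list by q (horizontal axis, decile 1 having the lowest q), for II (circles with exact 95% intervals) and for I, III, IV and V (squares). In the third decile II (65.4%) stands below III (77.0%) and IV (77.1%). In the fourth decile II stands at 50.8%, beside III (50.0%) and above IV (34.5%), V (7.81%) and I (1.79%).

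Most peaks on II were narrow. The median was 313 bp (quartiles 200 and 429), within the range of 311 to 317 bp on the other 4 autosomes, and peaks covered 365 kb, or 2.39% of the span. A share of 3.77% (37 of 981) was wider than 1000 bp, beside 3.41% of the whole list and 3.0% (121 of 4029) on the other autosomes, a difference of 0.77 points (interval -0.40 to 2.23) that was not called (Fisher's exact test, adjusted p = 0.31). Of these 37 wide peaks 24 lay in the centre (5.44% of its peaks), 12 in the right arm (3.56%) and 1 in the left arm (0.493%). The centre also had the largest share of wide peaks on I (3.91%). On III (4.96%) and IV (3.52%) the right arm had the largest, and on V the left arm (5.29%). The 5 widest were the first, second, ninth and eighth by strength, already given, and a region at 6842515 to 6845306. This last one was 2792 bp wide, ranked 34 on II (q = 7.35e-28) and met 3 peaks of replicate 1 and 1 of replicate 2, the strongest being 1180 bp and 456 bp wide.

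Wider peaks had lower q. Spearman's rho between width and −log10 q was 0.68 over the 981 peaks, against 0.65 to 0.74 on the other autosomes (a description, since width and q come from the same reads). At the other end, 56 peaks (5.71%) were narrower than the 36-bp reads, 4 of them a single base wide. None of these 56 overlapped both replicates, 11 overlapped replicate 1 only and 45 overlapped neither, with a median q of 0.00504.

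The strongest peaks of II found in neither replicate list were small. The first, at 9617243 to 9617314, was 72 bp wide and ranked 360 on II with q = 3.16e-06. The next 4 lay at 11513923 to 11513937 (15 bp), 1134426 to 1134570 (145 bp), 4945913 to 4945925 (13 bp) and 2244170 to 2244256 (87 bp), with ranks of 375 to 428. Every stronger peak of II had a counterpart in at least 1 replicate. As a group the 286 peaks found in neither had a median width of 192 bp and a median q of 0.00355, whereas the 326 found in both had 418.5 bp and 1.05e-10.

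Many peaks of II had a close neighbour. Of the 980 gaps between neighbouring peaks, 282 (28.8%, exact 95% interval 25.96 to 31.7) were 2000 bp or shorter, against 28.4% (1144 of 4025) elsewhere, and the difference of 0.35 points (interval -2.74 to 3.57) was not called (Fisher's exact test, adjusted p = 0.844). The median gap was 6290.5 bp and the smallest 200 bp, which was also the smallest gap in any list on any chromosome. Joined at 2000 bp, the 981 peaks formed 699 groups, of which 544 were single peaks, 100 were pairs and 55 held 3 or more. The largest group had 12 peaks, the most on any autosome, against 8 on I, 8 on III, 9 on IV and 11 on V.

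That largest run extended over 21703 bp, from 5320156 to 5341858, and contained the strongest peak of the chromosome. It held 12 combined, 14 replicate 1 and 8 replicate 2 peaks, which covered 56.5% of its length in the combined list. The second run, of 10 peaks, lay at 9111320 to 9121274 and included the fourth strongest region, with 10 replicate 1 and 3 replicate 2 peaks. Strong and weak peaks lay side by side in these runs, with q from 2.38e-210 to 0.00262 in the first and from 5.89e-92 to 0.00657 in the second. Of their combined peaks, 6 of the 12 and 3 of the 10 were found in both replicates.

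The third run, at 3951401 to 3960682, was in the left arm and held 9 combined, 6 replicate 1 and 1 replicate 2 peaks. It made up most of the fullest left-arm window, which had 14 peaks. Another, at 8124923 to 8135282, had 8, 5 and 3 peaks in the 3 lists. Runs of 7 combined peaks lay at 6832668 to 6845306, 14036425 to 14046548 and 7887247 to 7895425. The first of these included the third widest peak, and the second of these included the twelfth strongest. How the caller joined or divided neighbouring regions was not stated in the material at hand.

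**Figure D5:**
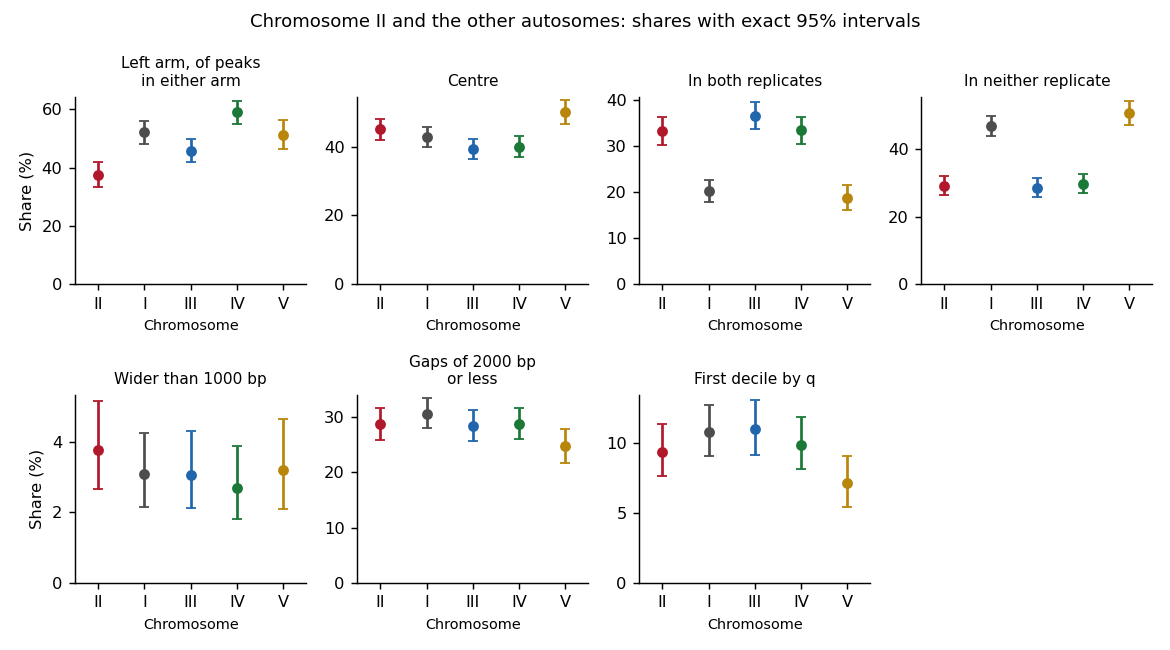
Shares of peaks or gaps (vertical axes, percent, starting at 0) on chromosome II and on I, III, IV and V, with exact 95% intervals as bars, for the 7 measures that were tested. II lies below all 4 others in the share of arm peaks in the left arm (37.6%) and beside III and IV in the shares found in both or in neither replicate.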

How the data were processed

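Immunoprecipitated and input DNA of strain OP304 was sequenced in 2 libraries each. Read numbers are counts in the deposited sample table, given as total and uniquely mapped reads (49.3% and 59.7% unique for ChIP, 61.6% and 62.4% for input). The reads were aligned to WormBase WS180, per the deposited sample table, and, per the file headers, peak positions were then converted to WS220. Peaks were called with PeakSeq, as the source column of the deposited lists names it. The aligner and the versions are not given in the sources used here. Each peak has a start, an end and a q-value, which is the authors' own deposited value and lies below 0.01 throughout. It was used to rank and filter peaks within a list, and to set the peaks of the 2 replicate lists side by side. The ChIP libraries differ in read number, and the part of this in differences of q between the lists was not tested. The deposited lists name 4 (combined), 3 (replicate 1) and 2 (replicate 2) peaks as changed in carrying over, 1 of them on II in each.

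From these lists, shares were computed with Python 3.11.15, pandas 2.3.3 and scipy 1.17.1. A peak was placed by its midpoint, and 2 peaks overlapped if they shared at least 1 bp. Intervals of shares are exact Clopper-Pearson intervals at 95%, intervals of differences follow Newcombe, and all cover counting error only. Shares on II were compared with I, III, IV and V by two-sided Fisher's exact tests with Benjamini-Hochberg adjustment, over 7 measures pooled and over 28 pairs, and called at 0.05. Chromosome lengths were replaced by the end of the last peak in any list. Named regions are the 20 strongest peaks, the 5 widest, the 5 strongest found in neither replicate, the 5 densest windows and 5 longest runs with ties, all empty windows and the 3 longest gaps. The members and lists were chosen with earlier results of these data known. The overlap calculation was checked with intervals placed at the ends of 200 peaks of II. All 200 that shared 1 bp were found, and 0 of 200 that began 1 bp beyond the end were counted. Fisher's exact test was checked on simulated counts of independent peaks, which neighbouring peaks are not. Other thresholds, comparison chromosomes and lists were tried as alternatives.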

Additional observations from a re-analysis of the deposited data

Results flagged for a closer look

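In 3 measures the peaks of II differed from those of the 4 other autosomes by a test of the difference itself (two-sided Fisher's exact test, adjusted over 7 measures). The share of arm peaks that lay in the left arm differed by -14.5 percentage points, at 37.6% on II and 52.1% elsewhere. By chromosome it was 52.1% on I, 45.8% on III, 58.97% on IV and 51.2% on V. The share found in both replicate lists differed by 5.68 points, at 33.2% on II and 27.6% elsewhere. It was 20.3% on I and 18.7% on V, but 36.6% on III and 33.4% on IV, from which II was not called apart (Fisher's exact test, adjusted p = 0.247 and 0.998), and against III and IV together the difference was -1.77 points. The share found in neither differed by -9.22 points, at 29.2% on II and 38.4% elsewhere. It was 46.7% on I and 50.5% on V, but 28.5% on III and 29.7% on IV (adjusted p = 0.896 and 0.904, Fisher's exact test), and against III and IV together the difference was 0.0674 points. The cause of these differences was not tested. Neighbouring peaks are not independent, and a chromosome as a whole is a single observation.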

How the results depend on the processing

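Of the 53 alternatives for the 7 tested shares, 42 kept the direction and the side of the threshold. The lower left share on II held in all 8 of its alternatives (-25.5 to -13.2 points), and ran -22.6 to -18.8 with 1 ChIP list at a time. With only III and IV as the comparison, the both-replicate difference was -1.77 points, the no-replicate difference 0.0674, and the centre difference 5.39 (adjusted p = 0.0183, Fisher's exact test). With the 50% of peaks with the lowest q, the first-decile difference was 1.06. II then held 490 peaks at 32.1 per Mb, against 981 at 64.3 per Mb in the full list, a drop that follows from the cut itself. With neighbours joined, the wide difference was -2.71, density 45.8 and the number of dense windows 0. The close-neighbour share could give no value there. With windows shifted by 50 kb, 6 were empty, not all of them in the left arm. With only peaks found in both replicates, chosen after seeing the data, the centre difference was -2.16 and the close-neighbour difference -1.20. With either ChIP list alone the ranges were -1.24 to 5.01 points for the centre, -0.732 to 1.04 for wide peaks, 0.986 to 3.39 for close neighbours, -2.38 to 0.0512 for the first decile and -7.59 to -7.31 for no-replicate peaks. Peak number ran 383 to 705, density 25.1 to 46.2 per Mb, dense windows 0 to 4 and empty windows 10 to 22. The cause of these changes was not tested. No paired analysis was possible because no result is a test between individual libraries: immunoprecipitated and input reads were compared by the peak caller alone. Weak peaks may be missed at this read depth.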
